A study of Mus musculus with 10 samples.

Results

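Expression of 8 genes of the nidogen, perlecan and SPARC families was examined in the lens epithelium of WT mice and of the transgenic lines OVE853 and OVE918. The 8 genes, Nid1, Nid2, Hspg2, Agrn, Sparc, Sparcl1, Smoc1 and Smoc2, were chosen by name from the 50763 genes of the count table. Both lines are transgenic for human TGF-β1. The αA-crystallin promoter drives the transgene in the lens, and its product is secreted in an active form. WT, OVE853 and OVE918 mice were all FVB/N and 3 weeks old, and no other agent was given. Freshly isolated lens epithelial explants gave 10 RNA-seq libraries, of which 3 were WT, 3 OVE853 and 4 OVE918. A WT or OVE853 library was a pool from up to 9 mice and an OVE918 library a pool from up to 7, so that a replicate is a pool and not a single animal. Whole epithelia entered the pools, including cells outside the anterior subcapsular plaque.

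The lens capsule is a thick basement membrane, and the lens epithelium lays down its anterior part. Basement membranes are built from networks of laminin and of type IV collagen. Nidogens (Nid1, Nid2) bridge both networks, and perlecan (Hspg2) and agrin (Agrn) are large heparan sulfate proteoglycans anchored to them. SPARC (Sparc), its homologue hevin (Sparcl1) and the modular proteins SMOC1 and SMOC2 share an extracellular calcium-binding domain, and SPARC binds collagens. Mice that lack SPARC develop cataract.

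Library totals ranged from 24073311 to 31908525 counts, and the 8 genes together took between 0.760% (WT replicate 3) and 1.69% (OVE853 replicate 3) of them. Levels are given as CPM, which are counts scaled to library size with TMM factors, and group values as the mean with its SD. Tgfb1 was higher in both lines, with 54.3 ± 6.41 CPM in WT, 350 ± 11.3 CPM in OVE853 and 775 ± 78.0 CPM in OVE918 (SD, n = 3, 3 and 4), as the labels require. Per the study, these counts hold reads of mouse Tgfb1 together with human transgene reads that map to it. They therefore measure neither of these alone. All 6 lens epithelium markers checked (Pax6, Foxe3, Cdh1, Cryaa, Cryab, Prox1) were detected in every library. WT replicate 3 stood apart from the other libraries. Its summed level of retinal neuron markers was 966 CPM, against 95.0 and 119 CPM in WT replicates 1 and 2 and 25.02 to 159 CPM in the transgenic libraries. Its level of the Müller glia marker Rlbp1 was 210 CPM, against 29.9 and 35.01 CPM in the other WT libraries. Glul, Slc1a3, Aqp4, Kcnj10 and Dkk3 of that list were also highest in WT replicate 3, but Clu and Vim were not. The sum of the 8 Müller glia markers, most of it Clu, Dkk3 and Vim, did not stand apart. It was 16736 CPM there, 14582 and 14496 CPM in WT replicates 1 and 2, and 17607 to 19952 CPM in the transgenic libraries. Log2 fold changes of the 8 genes against WT that leaving out WT replicate 3 moved by over 1.5 times are therefore given with and without it. In tissue RNA, fewer cells of a type and less RNA per cell cannot be told apart.

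Measured per length, the 8 genes spanned a wide range of levels, and their order in WT was Sparc, Nid1, Hspg2, Agrn, Sparcl1, Nid2, Smoc1 and Smoc2. As FPKM, which are counts scaled by exon length and library total, Sparc stood at 2331 ± 179, Nid1 at 385 ± 141 and Hspg2 at 157 ± 73.3 (SD, n = 3 WT libraries). Agrn followed at 15.9 ± 2.696 FPKM, Sparcl1 at 11.2 ± 9.08 FPKM and Nid2 at 3.61 ± 1.51 FPKM. Smoc1 had 1.53 ± 1.04 FPKM and Smoc2 0.236 ± 0.217 FPKM, both under the minimum of 2 FPKM used for testing. Sparc ranked 11 among all genes of WT by FPKM and 10 by CPM. The WT libraries of Sparc did not overlap those of Nid1, nor did Nid1 libraries overlap those of Hspg2 or Hspg2 libraries those of Agrn. Further down, Agrn overlapped Sparcl1 and Nid2 overlapped Smoc1, while the lowest Sparcl1 library (5.24 FPKM) lay only just above the highest Nid2 library (5.204 FPKM). Sparc also led in the transgenic lines, at 2455 ± 138 FPKM in OVE853 (SD, n = 3) and 1957 ± 90.2 FPKM in OVE918 (SD, n = 4).

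**Figure D1:**
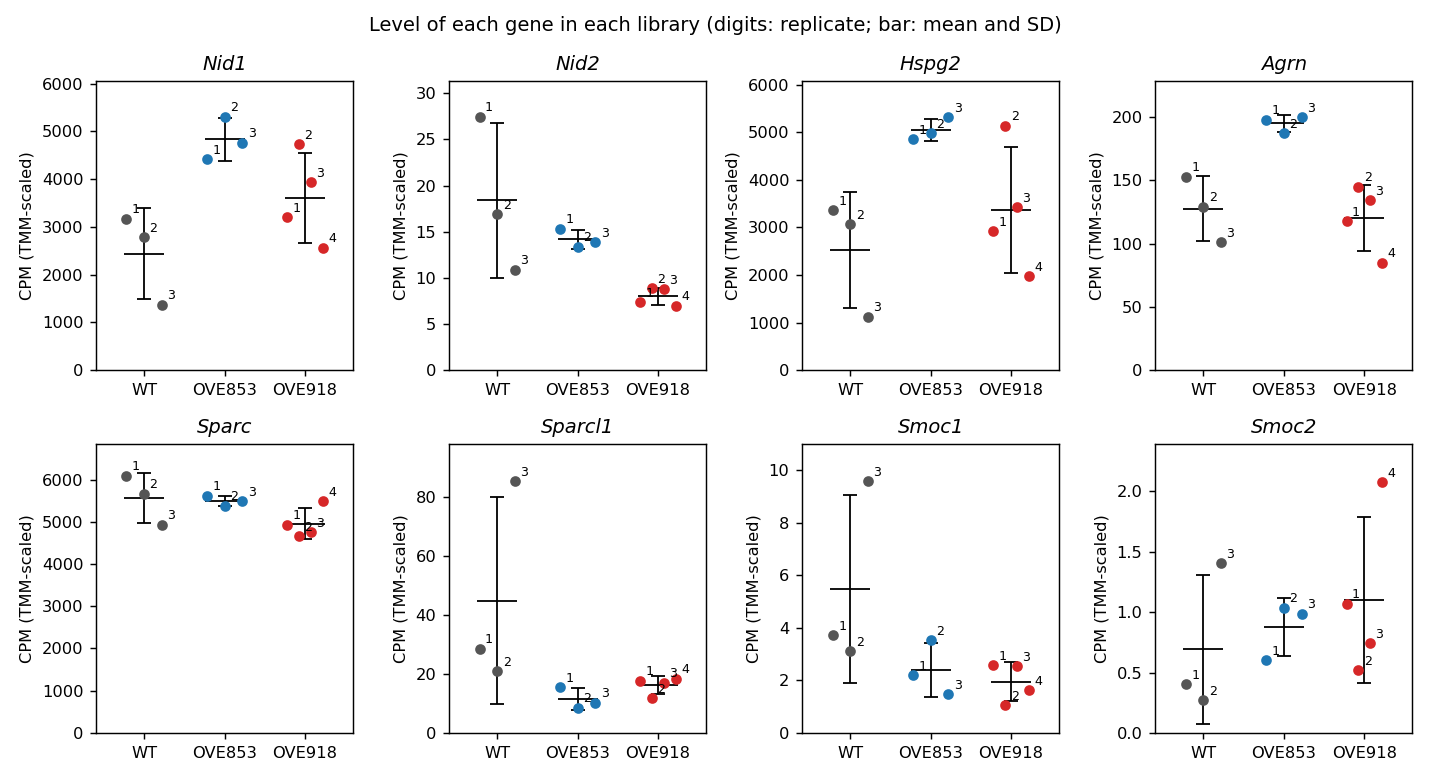
Level of each of the 8 genes in each library, in TMM-scaled CPM on linear axes that start at 0. Points are libraries with their replicate number, and bars give the mean and SD of 3 WT, 3 OVE853 and 4 OVE918 libraries. WT replicate 3 was the lowest WT library for Nid1, Nid2, Hspg2, Agrn and Sparc and the highest for Sparcl1, Smoc1 and Smoc2.

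The promoters of the most abundant members differed in sequence. RefSeq windows of 250 bases before the transcription start (build GRCm38.p6) were matched by symbol for 4 of the 8 genes, namely Nid1, Hspg2, Agrn and Sparc. Windows of Nid1 and Hspg2, whose levels ran alongside each other over the 10 libraries, are shown beside that of Sparc, whose level was steady. Nid1 is at chr13:13437352-13437601 (+ strand), Hspg2 at chr4:137468553-137468802 (+ strand) and Sparc at chr11:55420081-55420330 (− strand). Each is written 5′ to 3′ along the gene, with capitals for the GC box (GGGCGG, or CCGCCC on the other strand) and the SMAD box (CAGAC, or GTCTG on the other strand).
Nid1: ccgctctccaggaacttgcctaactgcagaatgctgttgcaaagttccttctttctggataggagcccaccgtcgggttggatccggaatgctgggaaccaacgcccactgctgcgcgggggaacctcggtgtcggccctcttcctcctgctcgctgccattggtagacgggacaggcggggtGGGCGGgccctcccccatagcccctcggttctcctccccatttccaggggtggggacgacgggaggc
Hspg2: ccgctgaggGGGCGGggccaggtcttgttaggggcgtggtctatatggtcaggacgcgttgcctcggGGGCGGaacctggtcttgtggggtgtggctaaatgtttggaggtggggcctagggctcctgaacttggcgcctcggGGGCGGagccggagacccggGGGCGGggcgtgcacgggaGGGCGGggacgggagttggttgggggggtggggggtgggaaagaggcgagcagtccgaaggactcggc
Sparc: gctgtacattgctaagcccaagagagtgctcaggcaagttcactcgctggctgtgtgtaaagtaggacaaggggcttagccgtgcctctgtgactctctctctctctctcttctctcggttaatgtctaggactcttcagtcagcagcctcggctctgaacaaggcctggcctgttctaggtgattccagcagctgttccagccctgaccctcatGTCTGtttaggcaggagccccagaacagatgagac

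The Hspg2 window held 5 GC boxes and the Nid1 window 1, whereas the Sparc window held 0. A SMAD box, the short motif that SMAD proteins bind downstream of TGF-β receptors, occurred 1 time in the Sparc window and 0 times in those of Nid1 and Hspg2. Agrn has a pair of RefSeq starts, and their windows held 12 and 2 GC boxes and no SMAD box. Among all 32851 RefSeq windows of this length, 32.7% held a GC box and 42.2% a SMAD box. GC content was 64.4% for Nid1, 70.0% for Hspg2 and 54.0% for Sparc. A match of these letters is a description of the sequence and does not show that a factor binds there.

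Each gene was tested in a fit of all 3 groups with edgeR's quasi-likelihood test. A DEG was called where the Benjamini-Hochberg adjusted p (FDR) was at most 0.05 and the log2 fold change was 1 or more in size. Of the 8 genes, 6 reached 2 FPKM in 5 or more libraries and entered this test, while Smoc1 and Smoc2 were read from a fit over the 18058 genes that passed edgeR's filterByExpr. Nid2 passed only through the WT and OVE853 libraries, since no OVE918 library reached 2 FPKM. Against WT, 1 of the 6 tested genes was called in OVE853 (Sparcl1), where 4.42% of all 11097 tested genes were called and 1.91% were called lower. In OVE918, 2 of the 6 were called (Nid2 and Sparcl1), where 5.6% of all tested genes were called and 3.02% were called lower. All of these calls of capsule genes were lower than WT. Between OVE918 and OVE853, 0 of the 6 were called by edgeR at this threshold and 0 by DESeq2, where 0.487% of all tested genes were called by edgeR. At an unadjusted p under 0.05, 2 of the 6 passed in that comparison (Nid2 and Agrn). The share of all tested genes at an unadjusted p under 0.05 was not counted. Numbers of genes at that p, here and in the gene lists below, therefore have no background to be read against. Without regard to the test, 4 of the 6 genes did not overlap between OVE853 and WT, 3 above and 1 below, beside 45.4% of all tested genes (23.4% above and 22% below). Between OVE918 and WT, 2 of the 6 did not overlap, both below, beside 27.2% of all tested genes (14.9% below). Between OVE918 and OVE853 it was again 2 of the 6, both below, beside 29.5% (16.2% below). The comparisons share their control or transgenic libraries and are not independent of each other. For the 6 genes the median log2 fold change was 0.30 in OVE853 and -0.12 in OVE918, against -0.011 and 0.014 over all tested genes.

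**Figure D2:**
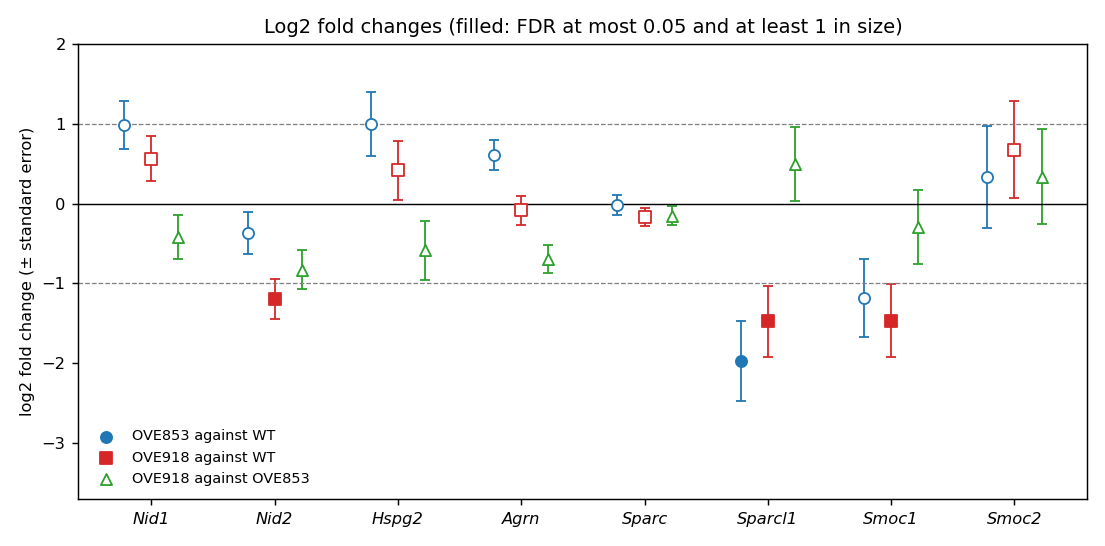
Log2 fold change of each gene in the 3 comparisons, with standard errors. Filled symbols mark an FDR of at most 0.05 with a log2 fold change of at least 1 in size, Smoc1 and Smoc2 come from the filterByExpr fit, and all 4 filled symbols (Nid2, Sparcl1 and Smoc1 in OVE918, Sparcl1 in OVE853) lie below 0.

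The nidogens differed in level and in how they changed. Nid1 (chromosome 13, 13612071 to 13686860, + strand, GRCm39) was detected at 3170, 2780 and 1372 CPM in the WT libraries, at 4419, 5306 and 4764 CPM in OVE853 and at 3197, 4733, 3935 and 2563 CPM in OVE918. Every OVE853 library lay above every WT library, whereas the OVE918 libraries overlapped both other groups. Against WT, OVE853 had a log2 fold change of 0.98 (standard error 0.30, FDR = 0.0472 in edgeR's quasi-likelihood test, 1.98-fold), just under the minimum fold change for a DEG. It was 0.56 in OVE918 (standard error 0.28, edgeR FDR = 0.185), and 0.28 without WT replicate 3 (edgeR FDR = 0.453). Without WT replicate 3 the log2 fold change in OVE853 was 0.70 (edgeR FDR = 0.0777), and without WT replicate 1 it was 1.22 (edgeR FDR = 0.0253), which is a call. Over all alternatives its FDR in OVE853 ran from 0.00549 to 0.126. OVE918 against OVE853 gave -0.42 (standard error 0.27, edgeR FDR = 0.364).

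Nid2 (chromosome 14, 19801298 to 19861855, + strand, GRCm39), the second nidogen, was far less abundant and was lower in OVE918. Its levels were 27.5, 16.9 and 10.9 CPM in WT, 15.3, 13.4 and 13.9 CPM in OVE853 and 7.37, 8.87, 8.77 and 6.97 CPM in OVE918. All 4 OVE918 libraries lay below all 6 other libraries, while OVE853 lay within the range of WT. Nid2 fell by 1.20 on the log2 scale in OVE918 against WT (standard error 0.25, FDR = 0.00684 in edgeR's quasi-likelihood test), a level 2.30-fold lower. Nid2 had passed the FPKM minimum for this test only through the WT and OVE853 libraries, where its level was higher. In OVE853 the log2 fold change was -0.37 (standard error 0.26, edgeR FDR = 0.339), and -0.64 without WT replicate 3 (edgeR FDR = 0.0556). Tested directly, OVE918 against OVE853 gave -0.83 (standard error 0.25, edgeR FDR = 0.107). This difference between the lines reached an FDR of 0.0288 with DESeq2 and of 0.0267 with edgeR when WT replicate 3 was left out, in each case with a fold change under the minimum and over all alternatives with FDRs from 0.0206 to 0.322. The call in OVE918 against WT rested in part on WT replicate 1, the library with the highest Nid2 level. Without it the log2 fold change was -0.80 (edgeR FDR = 0.0108), under the minimum fold change, and without WT replicate 3 it was -1.47 (edgeR FDR = 0.000290). With filterByExpr in place of the FPKM minimum, the log2 fold change in OVE918 against WT was -1.18 (edgeR FDR = 0.00997), still a call. Over all alternatives the FDR ran from 6.18e-05 to 0.0441. The summed level of 7 markers of the ciliary epithelium, which adjoins the lens, also ran lower in the lines. It was 204 to 294 CPM in WT, 77.6 to 99.96 CPM in OVE853 and 42.2 to 59.3 CPM in OVE918. Of the 7 markers, 6 were lower in every transgenic library than in every WT library, and Cldn10 was higher, at 4.96 to 12.4 CPM in WT and 16.8 to 25.5 CPM in the lines. Their part in the Nid2 level was not tested.

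The ratio of Nid1 to Nid2 within a library, which needs no scaling between libraries, separated both lines from WT. Counts of Nid1 were 115, 164 and 126 times those of Nid2 in WT, 288, 397 and 344 times in OVE853 and 434, 534, 449 and 368 times in OVE918. As log2 ratios the group means were 7.06 ± 0.26 (SD, n = 3) in WT, 8.41 ± 0.23 (SD, n = 3) in OVE853 and 8.79 ± 0.22 (SD, n = 4) in OVE918. All 7 transgenic libraries lay above all 3 WT libraries. The difference from WT was 1.35 in OVE853 (exact two-sided permutation p = 0.10) and 1.73 in OVE918 (exact two-sided permutation p = 0.0571), each the smallest p that these group sizes allow, and both were 0.137 after adjustment over the 12 ratio comparisons. Leaving out any 1 library gave differences of 1.23 to 1.49 in OVE853 and of 1.62 to 1.87 in OVE918. The lines overlapped in this ratio (difference 0.38, exact two-sided permutation p = 0.114). Without WT replicate 3 the differences from WT were 1.30 and 1.68.

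**Figure D3:**
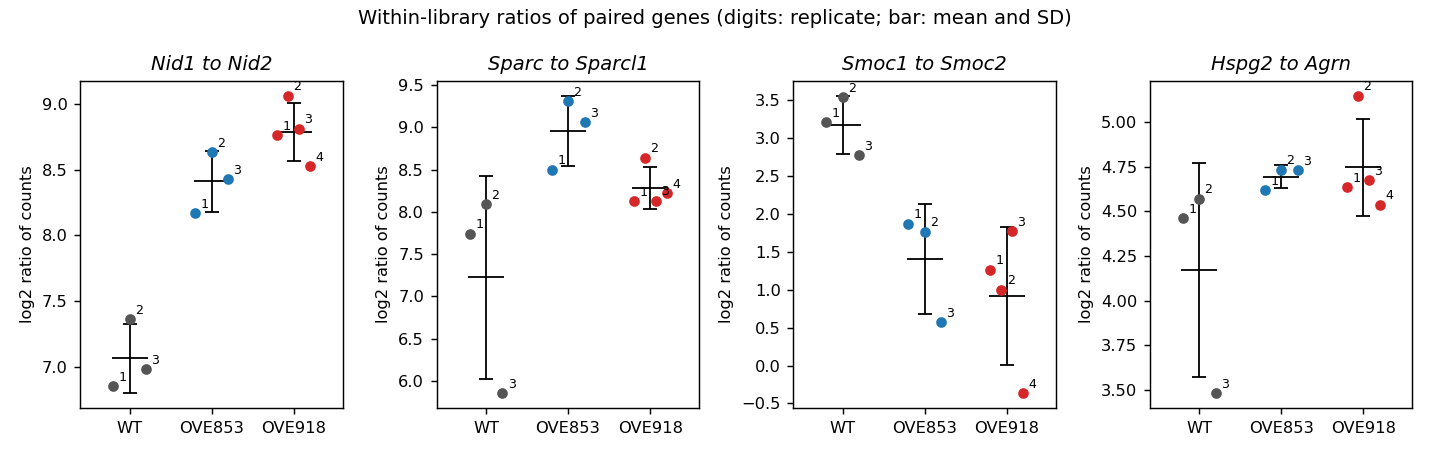
Log2 ratio of counts of paired genes within each library (points with replicate numbers), with the mean and SD of each group. The ratio of Nid1 to Nid2 lay between 6.85 and 7.36 in WT and between 8.17 and 9.06 in the transgenic libraries, and WT replicate 3 lay apart from the other WT libraries for Sparc to Sparcl1 and for Hspg2 to Agrn.

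Among the heparan sulfate proteoglycans, perlecan was the abundant one. Hspg2 (chromosome 4, 137196079 to 137298231, + strand, GRCm39) was detected at 3366, 3073 and 1127 CPM in WT, at 4857, 4978 and 5314 CPM in OVE853 and at 2923, 5136, 3422 and 1969 CPM in OVE918. OVE853 lay above WT in every library, and its libraries spread little (5050 ± 237 CPM, SD, n = 3). WT replicate 3 and OVE918 replicate 4 were the lowest libraries of their groups. Against WT, the log2 fold change was 1.00 in OVE853 (standard error 0.40, FDR = 0.110 in edgeR's quasi-likelihood test) and 0.42 in OVE918 (standard error 0.37, edgeR FDR = 0.484). Without WT replicate 3 these values were 0.65 (edgeR FDR = 0.216) and 0.061 (edgeR FDR = 0.928). FDRs ran from 0.0349 to 0.266 in OVE853 and from 0.279 to 0.928 in OVE918 over all alternatives. OVE918 against OVE853 gave -0.59 (standard error 0.37, edgeR FDR = 0.352).

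Agrn (chromosome 4, 156249740 to 156282014, − strand, GRCm39), known best for gathering acetylcholine receptors at the neuromuscular junction, had its highest level in OVE853. It was detected at 153, 129 and 101 CPM in WT, at 198, 187 and 200 CPM in OVE853 and at 118, 145, 134 and 84.8 CPM in OVE918. OVE853 lay above every library of both other groups, and OVE918 overlapped WT. The same held for other listed genes, among them Col4a3, Col4a4 and Fstl1. The log2 fold change of Agrn was 0.61 in OVE853 against WT (standard error 0.19, FDR = 0.0525 in edgeR's quasi-likelihood test) and -0.084 in OVE918 against WT (standard error 0.18, edgeR FDR = 0.786). Without WT replicate 3 these values were 0.47 (edgeR FDR = 0.152) and -0.23 (edgeR FDR = 0.454). OVE918 against OVE853 gave -0.69 (standard error 0.18, edgeR FDR = 0.0777), with an FDR of 0.0367 in edgeR without WT replicate 3 and of 0.00965 in DESeq2, the lowest over all alternatives, of which the highest was 0.303. Counts of Hspg2 exceeded those of Agrn by 11.2 (WT replicate 3) to 35.5 times (OVE918 replicate 2) within a library. The log2 ratio was 4.17 ± 0.60 in WT (SD, n = 3), 4.70 ± 0.066 in OVE853 (SD, n = 3) and 4.75 ± 0.27 in OVE918 (SD, n = 4). It exceeded WT by 0.52 in OVE853 (exact two-sided permutation p = 0.10, the smallest possible) and by 0.58 in OVE918 (exact two-sided permutation p = 0.114), and by 0.18 and 0.23 without WT replicate 3.

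Within OVE918, Nid1, Hspg2 and Agrn were all highest in replicate 2 and lowest in replicate 4. The summed level of 8 lens fiber markers was 28268, 13998, 20342 and 28094 CPM in OVE918 replicates 1 to 4, lowest in replicate 2. In WT it was 22028, 15322 and 14316 CPM, lowest in replicate 3, where the 3 genes were also lowest. Its part in these levels was not tested. The sum of the fibroblast markers, but not each of them, ran in the same direction as the 3 genes in OVE853. Their summed level over 7 genes was 375 to 598 CPM in WT, 951 to 1048 CPM in OVE853 and 546 to 797 CPM in OVE918, most of it Pdgfra and Col6a3. Of the other 5 markers, Lum and Dpt stayed under 0.5 CPM in every library, and Col3a1 reached 3.60 CPM (OVE918 replicate 4). Dcn and Thy1 went the other way, lower in every OVE853 library than in every WT library. Dcn was at 0.731 to 2.35 CPM in WT and 0.259 to 0.613 CPM in OVE853. Thy1 was at 5.46 to 57.9 CPM in WT, highest in WT replicate 3, and 1.02 to 2.82 CPM in OVE853. The summed level of 7 mural cell markers was 115 to 154 CPM in WT, 154 to 193 CPM in OVE853 and 122 to 159 CPM in OVE918, most of it Pdgfrb. The part of these markers in the levels was not tested.

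Sparc (chromosome 11, 55285317 to 55314067, − strand, GRCm39) was the steadiest of the 8 genes, with the smallest coefficient of variation in each group (10.6% in WT, 2.17% in OVE853 and 7.42% in OVE918). It was detected at 6091, 5662 and 4928 CPM in WT, at 5622, 5385 and 5487 CPM in OVE853 and at 4928, 4662, 4752 and 5482 CPM in OVE918. In CPM the groups overlapped in all 3 comparisons. In FPKM, which were not TMM-scaled, all OVE918 libraries (1837 to 2030) lay below all WT (2125 to 2450) and all OVE853 libraries (2296 to 2544). The log2 fold change was -0.016 in OVE853 (standard error 0.12, FDR = 0.939 in edgeR's quasi-likelihood test), -0.17 in OVE918 (standard error 0.11, edgeR FDR = 0.348) and -0.15 between OVE918 and OVE853 (standard error 0.11, edgeR FDR = 0.434). Over all alternatives the value ranged from -0.097 (without WT replicate 3) to 0.053 in OVE853 and from -0.30 to -0.097 in OVE918.

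Sparcl1 (chromosome 5, 104226288 to 104262065, − strand, GRCm39), the gene of the SPARC homologue hevin, was lower in both lines. Its level was 28.5, 20.8 and 85.2 CPM in WT, 15.6, 8.49 and 10.2 CPM in OVE853 and 17.6, 11.7, 16.9 and 18.4 CPM in OVE918. All transgenic libraries lay below all WT libraries, and WT replicate 3 exceeded the other WT libraries several times over. Sparcl1 fell by 1.97 on the log2 scale in OVE853 (standard error 0.50, FDR = 0.0299 in edgeR's quasi-likelihood test), a level 3.92-fold lower. In OVE918 it fell by 1.48 (standard error 0.45, edgeR FDR = 0.0495), a level 2.78-fold lower. The lines did not differ detectably from each other (log2 fold change 0.49, standard error 0.46, edgeR FDR = 0.529).

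The size of the Sparcl1 change rested on WT replicate 3. Without it, Sparcl1 was still called in OVE853, at a log2 fold change of -1.10 (FDR = 0.0195 in edgeR's quasi-likelihood test), but no longer in OVE918, at -0.61 (edgeR FDR = 0.130). The call in OVE853 was also lost when any 1 OVE853 library was left out, with FDRs from 0.0557 to 0.105, and that in OVE918 under 13 of 20 alternatives. FDRs over all alternatives ran from 0.00200 to 0.105 in OVE853 and from 0.0141 to 0.148 in OVE918. All 10 retinal neuron markers were highest in WT replicate 3. Of the Müller glia markers, Rlbp1 was also highest there, while Clu and Vim were not. Kdr, a receptor that endothelial and some retinal cells make, was at 113 CPM in WT replicate 3 against 15.4 and 15.2 CPM in the other WT libraries. The summed level of 8 endothelial markers, Kdr among them, was 147 CPM there against 60.7 and 57.9 CPM. Of these 8, Kdr, Tie1 and Esam were highest of the WT libraries in WT replicate 3, and Pecam1, Cdh5, Cldn5, Emcn and Egfl7 were lowest there. The part of retinal or endothelial cells in the Sparcl1 level was not tested. Within a library, counts of Sparc were 214, 272 and 57.9 times those of Sparcl1 in WT, 361 to 635 times in OVE853 and 279 to 400 times in OVE918. The difference in log2 ratio from WT was 1.73 in OVE853 (exact two-sided permutation p = 0.10) and 1.05 in OVE918 (exact two-sided permutation p = 0.0571), and 1.04 and 0.37 without WT replicate 3.

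**Figure D4:**
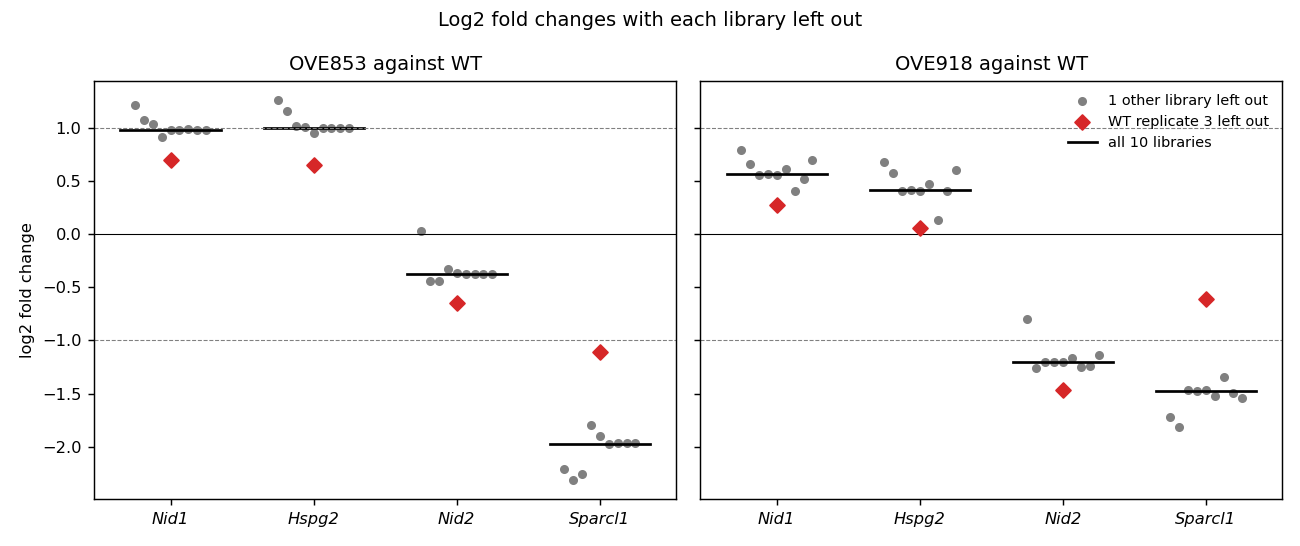
Log2 fold changes of Nid1, Hspg2, Nid2 and Sparcl1 against WT with each of the 10 libraries left out in turn. Black lines give the values with all libraries, diamonds those without WT replicate 3, and grey points those without 1 other library. Leaving out WT replicate 3 moved Sparcl1 from -1.97 to -1.10 in OVE853 and from -1.48 to -0.61 in OVE918.

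The SMOC genes were scarce in every library. Smoc1 (chromosome 12, 81073554 to 81233188, + strand, GRCm39), whose product binds calcium and antagonizes BMP signalling, had 81 to 273 counts per library in WT and 28 to 95 in the transgenic lines. Its level was 3.71, 3.12 and 9.57 CPM in WT, 2.21, 3.52 and 1.46 CPM in OVE853 and 2.57, 1.04, 2.53 and 1.61 CPM in OVE918. OVE918 lay below WT in every library and OVE853 overlapped WT, with the highest level again in WT replicate 3. In the filterByExpr fit, where 8.79% of all genes were called in OVE918, 6.89% in OVE853 and 0.244% between the lines, Smoc1 fell by 1.47 in OVE918 (standard error 0.45, FDR = 0.0498 in edgeR's quasi-likelihood test). That call was lost under 13 of 18 alternatives, with a log2 fold change of -0.81 (edgeR FDR = 0.226) without WT replicate 3 and FDRs from 0.00706 to 0.307 over all alternatives. In OVE853 the log2 fold change was -1.18 (standard error 0.49, edgeR FDR = 0.125), and -0.55 without WT replicate 3 (edgeR FDR = 0.461).

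Smoc2 (chromosome 17, 14499735 to 14625074, + strand, GRCm39), the paralogue of Smoc1, had only 7 to 45 counts per library. Its level was 0.402, 0.269 and 1.40 CPM in WT, 0.604, 1.04 and 0.987 CPM in OVE853 and 1.07, 0.521, 0.743 and 2.08 CPM in OVE918. The groups overlapped. Log2 fold changes were 0.34 in OVE853 (standard error 0.64, FDR = 0.744 in edgeR's quasi-likelihood test) and 0.67 in OVE918 (standard error 0.61, edgeR FDR = 0.482). Without WT replicate 3 they were 1.34 (edgeR FDR = 0.219) and 1.70 (edgeR FDR = 0.0950). Smoc1 counts exceeded those of Smoc2 by 9.22, 11.6 and 6.83 times in WT and by 1.48 to 3.65 times in OVE853. In OVE918 the ratio ranged from 0.778 to 3.40. The difference in log2 ratio from WT was -1.77 in OVE853 (exact two-sided permutation p = 0.10) and -2.25 in OVE918 (exact two-sided permutation p = 0.0571), with no overlap. This ratio rests on the few Smoc2 counts.

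Other basement membrane genes were examined beside the 8 genes. Of 19 laminin, type IV, type XV and type XVIII collagen genes, 15 were tested. In OVE853, Lama5 was called higher (log2 fold change 1.14) and Lama3 (-2.77) and Col18a1 (-1.29) lower, by edgeR at the threshold above. Of all tested genes, 2.51% were called higher there and 1.91% lower. In OVE918, Lama3 (-2.82), Col18a1 (-2.73) and Lamb2 (-1.14) were called lower, beside 3.02% of all tested genes. Lama3 encodes a laminin chain of epithelial basement membranes, Lama5 a chain of laminins common in mature basement membranes, and Col18a1 the third heparan sulfate proteoglycan of basement membranes and the source of endostatin. The list median was 0.49 in OVE853 and -0.014 in OVE918, against -0.011 and 0.014 over all tested genes.

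Nid1 and Hspg2 ran close to the laminin γ1 chain across the libraries, a comparison chosen after the values were seen. Likeness was taken as the root mean square difference of centred log2 CPM over the 10 libraries, in which all genes share the same depth, and is given as a description. Among the 28 pairs of the 8 genes, Nid1 and Hspg2 were closest, at 0.189. The pair values used a different small offset under the log from the values that follow, and are not strictly on the same scale. Of the 15 tested basement membrane genes, Lamc1 (0.114), Col4a5 (0.123) and Lama5 (0.139) were nearest to Nid1, and Lamc1 (0.203), Lama5 (0.225) and Lama1 (0.232) to Hspg2. Lamc1 ranked 5 among all tested genes for each of them. WT replicate 3 was the lowest WT library for 5 of the 6 tested members and for 12 of the 15 basement membrane genes, beside 38.4% of all tested genes. OVE918 replicate 4 was the lowest of its line for 4 of the 6 and for 12 of the 15, beside 35.3%. The tested genes most like Nid2 were Heph (0.215), Pdgfrl (0.234) and Eya1 (0.241), and those most like Sparcl1 were Bex2 (0.326), Rnd2 (0.328) and Mgll (0.341).

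**Figure D5:**
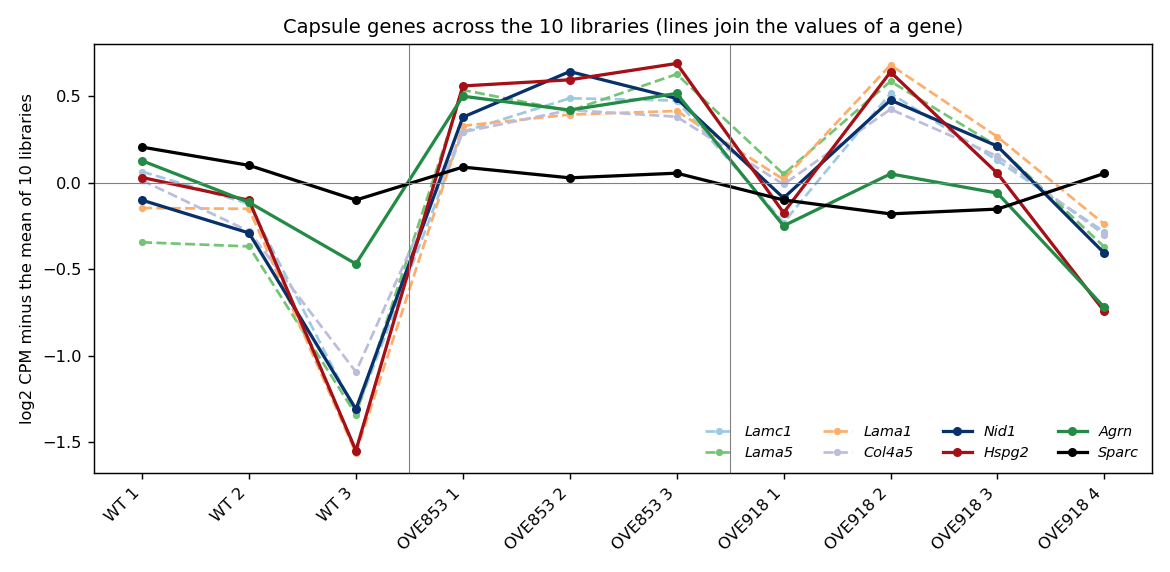
Log2 CPM of 4 of the genes (solid lines) and of 4 laminin and collagen IV genes (dashed lines), each minus its mean over the 10 libraries. Lines join values of a gene to help the eye, as replicates have no order. Nid1 and Hspg2 follow Lamc1, Lama1, Lama5 and Col4a5, with a low point in WT replicate 3, while Sparc stays near 0.

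Receptors and cell surface partners of the capsule were examined as 14 genes, 12 of them tested. By edgeR, 2 were called higher in OVE853, where 2.51% of all tested genes were, namely Itga7, a laminin-binding integrin chain (log2 fold change 2.19), and Gpc1, a glypican (1.41). In OVE918, where 2.58% of all tested genes were called higher and 3.02% lower, 3 were called higher, Itga7 (2.49), Gpc1 (1.36) and Sdc1, a syndecan (1.17), and Bcam, a receptor for laminin α5, was called lower (-1.14). Of the agrin receptor pair, Musk was under the FPKM minimum and Lrp4 had a log2 fold change of -0.63 in OVE918 (FDR = 0.0227 in edgeR's quasi-likelihood test), under the minimum fold.

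Perlecan and agrin carry heparan sulfate chains, and of 16 genes for their synthesis, sulfation and trimming 13 were tested. In OVE853, 0 were called by edgeR and 0 by DESeq2, beside 4.42% of all tested genes by edgeR. The FDR alone was passed by 4, beside 15.8% of all tested genes, and 6 had an unadjusted p under 0.05. Those 4 were Xylt2 (log2 fold change 0.43) and Ext2 (0.35), which were higher, and Glce (-0.84), the epimerase of glucuronic acid, and Hs6st1 (-0.51), which were lower. In OVE918 Hs3st1, a 3-O-sulfotransferase, was called higher (log2 fold change 1.01). The FDR at any fold change was passed by 5, beside 19% of all tested genes, and besides Hs3st1 these were all lower, namely Glce (-0.78), Sulf1 (-0.60), Hs6st1 (-0.59) and Extl3 (-0.41). Of the other 4 SPARC family genes, Spock1, Spock2 and Fstl1 were tested and Spock3 was under the FPKM minimum. In each line 0 of the 3 were called by edgeR and 0 by DESeq2, beside 4.42% of all tested genes in OVE853 and 5.6% in OVE918 by edgeR, with 0 in OVE853 and 1 in OVE918 at an unadjusted p under 0.05. Spock1 passed the FDR alone in OVE918 (log2 fold change 0.49, edgeR FDR = 0.0311). The untested Spock3 was at 22.9 ± 5.64 CPM in WT, 4.25 ± 0.965 CPM in OVE853 and 4.16 ± 0.954 CPM in OVE918 (SD, n = 3, 3 and 4). Every library of both lines lay below every WT library for Spock3. Of all tested genes, 22% lay below WT in this way in OVE853 and 14.9% in OVE918. For comparison, 4 of 8 TGF-β response genes (Tgfb1, Tgfbi, Fn1, Col1a1) were called higher in each line, beside 2.51% and 2.58% of all tested genes, with log2 fold changes between 1.77 and 5.13. Among these, the Tgfb1 counts include transgene reads.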

How the data were processed

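Counts of 10 mRNA-seq libraries (150 bp, paired end) were used. Per the labels and the study's methods, the authors used cutadapt 5.2 for trimming and STAR 2.7.11b for alignment to mm39, and counted read pairs on RefSeq exons by strand with featureCounts 2.0.8. The authors deposited unnormalized counts. The study's own tests used edgeR 4.6.3. The present fits used edgeR 4.0.16 and DESeq2 1.42.0 (limma 3.58.1, R 4.3.3). Exon lengths for FPKM came from the Primary transcripts of GENCODE vM39, found by symbol for 43252 genes and by synonym for 22, which left 7489 without a length. TMM factors and robust quasi-likelihood fits of 3 groups without covariates were used, with Benjamini-Hochberg adjustment over the 11097 tested genes. Ratios were tested by exact permutation. Centred log2 CPM for the likeness values used a prior count of 2. Pairs of the members instead had a small constant added to each CPM before the log. Replicates are pools, and p-values measure the spread between pools. Library totals were 24073311 to 31908525 counts.

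The members and gene lists were chosen with earlier results of these data known, and the members were all named. From each pathway list, called genes without overlap of groups were named, at most 3 per direction and line, together with the 3 genes nearest to each called member. Lrp4, Musk, Xylt2, Ext2, Glce, Hs6st1, Sulf1, Extl3, Spock1, Spock2, Spock3, Fstl1 and the Lamc1, Col4a5 and Lama1 likeness values were named after their values were seen. So were Col4a3 and Col4a4. Alternatives were DESeq2, upper-quartile factors, other filters, a 2-group fit, non-robust estimation, the replicate number or the number in the library names as a block, no minimum fold change and leaving out each library. The steps were tested on simulated data. A result that the naming rule would have added is not reported here.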

Additional observations from a re-analysis of the deposited data

Results flagged for a closer look

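Among the other genes of the pathway lists, 3 were called when OVE918 was tested directly against OVE853 with edgeR's quasi-likelihood test, at an FDR of at most 0.05 and a log2 fold change of 1 or more in size. Col18a1, the collagen XVIII gene, had a log2 fold change of -1.44 and was lower than WT in both lines. Bcam, a laminin receptor gene, had a log2 fold change of -1.08. Tgfb1, whose counts include human transgene reads, had a log2 fold change of 1.15, higher in OVE918. Sulf1 passed the FDR but not the fold minimum, at -0.84 (edgeR FDR = 0.0249). No member was called in this comparison, and no group of 4 OVE918 libraries held a member value far enough from the others to be singled out. Groups of 3 were not examined for this.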

How the results depend on the processing

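Of 468 log2 fold changes of the 8 genes recomputed under the alternatives (24 values in all 3 comparisons), 422 kept direction and side of the threshold, 32 lost the call, 3 gained it and 11 changed sign. For the count of DEGs in OVE853 (491), filterByExpr gave 1244, no filter 1061 and no minimum fold change 1752, and leaving out 1 library gave 334 to 664. In OVE918 (621) the same settings gave 1587, 1548, 2110 and 523 to 729. Between OVE918 and OVE853 (54), DESeq2 gave 106, a fit of only the 2 groups 97, the replicate block 28, the library-name number as a block 33, no minimum fold change 146 and leaving out 1 library 6 to 93. Of the capsule genes in OVE853 (1), no filter and the 2-group fit each left 0, the replicate block (with Nid1 at 1.03, FDR = 0.0462 in edgeR) and no minimum fold change each gave 2, and leaving out 1 library gave 0 to 2. In OVE918 (2), upper-quartile factors, no filter, the 2-group fit, the replicate block and leaving out both WT replicate 3 and OVE918 replicate 4 (chosen after seeing the data) each gave 1, and leaving out 1 library gave 1 to 2.

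When 1 library was left out, log2 fold changes in OVE853 ranged from -0.64 to 0.031 for Nid2 (above 0 without WT replicate 1), from -0.097 to 0.053 for Sparc (likewise) and from -0.040 to 1.34 for Smoc2 (below 0 without WT replicate 2), and in OVE918 from -0.23 to 0.063 for Agrn (above 0 without WT replicate 1 or OVE918 replicate 4). Between the lines they ranged from -0.52 to 0.086 for Smoc1 (above 0 without OVE853 replicate 2) and from -0.15 to 0.57 for Smoc2 (below 0 without OVE918 replicate 4), and the difference in log2 ratio of Hspg2 to Agrn from -0.080 to 0.12 (below 0 without OVE918 replicate 2). Sparc was at 0.052 in OVE853 with the library-name block, Agrn at 0.061 in OVE918 with the replicate block, and Smoc2 at -0.17 between the lines with the replicate block and without both libraries. The cause was not tested. Deviations from the group mean in same-numbered libraries gave correlations of -0.303 to 0.0838 over 9 pairs. Libraries with the same number in the library names gave correlations of -0.221 to 0.389, with 2 of 8 pairs over 0.1. Pairs that share neither number ran from -0.399 to 0.296. With groups of 3 or 4, these values cannot show whether libraries were processed together. The lowest counts were those of Smoc1 and Smoc2.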
